A study of Rattus norvegicus with 32 samples.

Results

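The activator genes of the circadian clock, Bmal1, Npas2 and Clock, and the REV-ERB genes, Nr1d1 and Nr1d2, were followed through the hours of sampling in rat mammary gland. Members were chosen by symbol: 10 probe sets of the array carry the symbol of 1 of these 5 genes, and the 9 with a median intensity of at least 10 were kept, of 31099 probe sets in all. A probe set is a group of short oligonucleotides read together as 1 value, for 1 or more transcripts. The probe set left out, 1369168_a_at of Clock, had a median of 6.46 and a highest value of 9.74. Each of 32 Affymetrix rat genome arrays measured the gland of 1 untreated adult virgin Sprague Dawley rat, so no time point has a replicate, and error here means the scatter of rats around a fitted course. Rats were chosen for regular 4-day estrous cycles, with estrus on day 2, and the light schedule was not given in the sources used here. The 31 arrays used fall on the 4 days of the cycle, with clock hours from midnight of 7 to 17.6 h in the 8 rats of day 1, 7.6 to 19 h in the 8 of day 2, 9 to 19.1 h in the 8 of day 3 and 7.3 to 16.1 h in the 7 of day 4. The rat of 40 h on day 2 was left out because the study judged its data corrupted. Night hours were not sampled. Labels and methods differ on the glands taken and on how they were preserved. They were not reconciled here.

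The whole gland was measured, so fewer cells of a type and less RNA per cell cannot be told apart. Markers of luminal epithelium, myoepithelium, adipocytes and macrophages were present: of 7, 6, 6 and 4 markers, all had a median of at least 10. Of 6 lymphocyte markers 4 were on the array and 2 had such a median, and their summed intensity ran from 51.8 to 2382. The sum of 6 skeletal muscle markers ran from 136 to 43948. Along the day, the log2 slope of the summed markers over 10 h was 0.08 ± 0.11 (SE, the standard error, n = 31 rats) for luminal epithelium, 0.12 ± 0.11 for adipocytes and -1.08 ± 1.36 for skeletal muscle. That slope was -0.06 ± 0.13 for myoepithelium, -0.61 ± 0.76 for lymphocytes and 0.06 ± 0.14 for macrophages. Of single markers, 2 of 6 for adipocytes passed the test for a slope and 0 of the other lists. Of all probe sets tested, 1.08% rose and 0.68% fell. The slope of the adipocyte sum therefore does not stand for each of its markers. The part of these cell types in the results was not tested. Median intensities of the arrays ran from 49.9 to 54.7.

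BMAL1 is a transcription factor that pairs with CLOCK or with its relative NPAS2, and the pair binds E-box motifs and turns on the genes of its own repressors. Among the genes it turns on are Nr1d1 and Nr1d2, which encode REV-ERB alpha and REV-ERB beta, nuclear receptors that bind heme and recruit corepressors. REV-ERBs compete with the activating ROR receptors for the ROR response element, which lies in the promoters of Bmal1, Npas2 and other genes. In clock tissues activators and REV-ERBs therefore peak at different hours.

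Short stretches of promoter are shown because these motifs define the loop. In the RefSeq annotation of assembly GRCr8, Bmal1 lies on chromosome 1 (176766222 to 176864741), Npas2 on chromosome 9 (48959225 to 49138036), Nr1d1 on chromosome 10 (84224599 to 84231812), Clock on chromosome 14 (32262747 to 32346872) and Nr1d2 on chromosome 15 (9955034 to 9981329). The array values themselves carry no genome build. RefSeq promoter windows of 250 bases before to 50 after a transcript start were searched on both strands, 7 windows for the 5 genes, for the E-box CACGTG, the nuclear receptor half-site AGGTCA, the D-box TTANGTAA and the full ROR response element, whose last letters are the half-site. The full element was found in the window of Bmal1 alone among the 5 genes, 20 to 10 bases before the start, and in 0.356% of all 33469 windows. The E-box was found in 1 of the windows of Nr1d1, 191 to 186 bases before the start (6.42% of all windows), and the half-site in Nr1d2, 187 to 182 bases before the start, besides its place inside the element of Bmal1 (16.2%). The Bmal1 and Nr1d1 matches lie inside the annotated span of their genes, since the windows belong to starts downstream of the outermost one, and the Nr1d2 match lies upstream of its gene. The D-box was found in none of the 7 windows (2.24% of all). The windows of Npas2 and Clock held none of these letters, which says nothing about sequence outside them. Capitals mark the match, 5′ to 3′ on the strand of the gene.
Bmal1 ROR response element, chr1:176766299-176766328, plus strand: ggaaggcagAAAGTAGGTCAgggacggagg
Nr1d1 E-box, chr10:84229628-84229657, minus strand: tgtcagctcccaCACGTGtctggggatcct
Nr1d2 half-site, chr15:9954835-9954864, plus strand: gattggaaggagAGGTCAggaacgcgcata

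Over the sampled day all 3 activator genes fell and both REV-ERB genes rose. In a limma fit on log2 intensity with a level for each cycle day and 1 slope for the clock hour, 5 of the 9 probe sets fell, against 0.68% of 22943 probe sets tested, and 4 rose, against 1.08%, at an adjusted p under 0.05 (Benjamini-Hochberg over all probe sets tested). The median log2 slope of all probe sets was 0.02 over 10 h.

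Bmal1 (1370510_a_at), the activator without which the loop stops, spanned a 20.04-fold range over the 31 rats, from 13.4 to 268. From 7 to before 10 h the intensity in 7 rats ran from 219 to 268, with a median of 244. Rats differed widely in the next window, where 7 rats from 10 to before 13 h lay between 75.5 and 235, with a median of 153. It then lay between 26.2 and 82.1 in the 9 rats from 13 to before 16 h, with a median of 47.5, and between 13.4 and 24.8 in the 8 rats from 16 h on, with a median of 20.5. The last group overlapped neither the group before it nor the first, and the mean fell 12.3-fold from first to last. Its slope was -3.80 log2 units over 10 h (SE 0.26, adjusted p = 4.05e-11 from limma).

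Npas2 (1383439_at), the partner that can stand in for CLOCK, lay at similar levels in the windows before 13 h and lower after them. It lay between 327 and 541 (median 428) in the 7 rats before 10 h and between 319 and 501 (median 421) in the 7 rats from 10 to before 13 h, groups that overlap almost fully, while the Bmal1 medians of the same rats were 244 and 153. From 13 to before 16 h it lay between 58.0 and 246 (median 142, n = 9) and from 16 h on between 24.4 and 103 (median 45.4, n = 8). No rat sampled before 13 h lay under 319 and none of the 17 later rats lay over 246. The slope was -3.45 over 10 h (SE 0.29, adjusted p = 2.94e-09 from limma). A bend of the course did not pass the test (curvature -0.021 log2 units per squared hour, SE 0.0074, unadjusted p = 0.00875, adjusted p = 0.999 from limma). A level held until about noon and a steady fall were therefore not told apart.

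Clock, the usual partner of BMAL1, fell far less. For 1390199_at the intensity lay between 650 and 878 (median 831) in the 7 rats before 10 h, between 706 and 840 (median 788) in the next 7, between 520 and 686 (median 568.2) in 9 rats from 13 h and between 465 and 585 (median 527) in the last 8. As for Npas2, the 3-h windows just before and just after 13 h do not overlap (706 against 686). The earlier rats of 31.6 h (650) and 80.9 h (652) lay within the later range. No rat was sampled between 11.9 and 13 h, so a step there and a steady fall were not told apart. A bend of the course did not pass the test (curvature 0.00069 log2 units per squared hour, SE 0.0027, adjusted p = 0.999 from limma). The slope was -0.66 over 10 h (SE 0.095, adjusted p = 5.82e-05 from limma). The other Clock probe sets ran the same way with overlapping windows. For 1380098_at the median went from 141 before 10 h to 92.9 from 16 h on, with a slope of -0.58 (SE 0.13, adjusted p = 0.0155 from limma). For 1389456_at it went from 251 to 175, with a slope of -0.44 (SE 0.11, adjusted p = 0.0345 from limma). Both calls were lost when any 1 of the 4 days was left out (adjusted p from 0.0538 to 0.166). The call of 1389456_at was also lost without the rat of 7.5, 31.6, 32.8, 57, 58, 67.1, 79.3 or 88.1 h (adjusted p up to 0.0697).

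**Figure D1:**
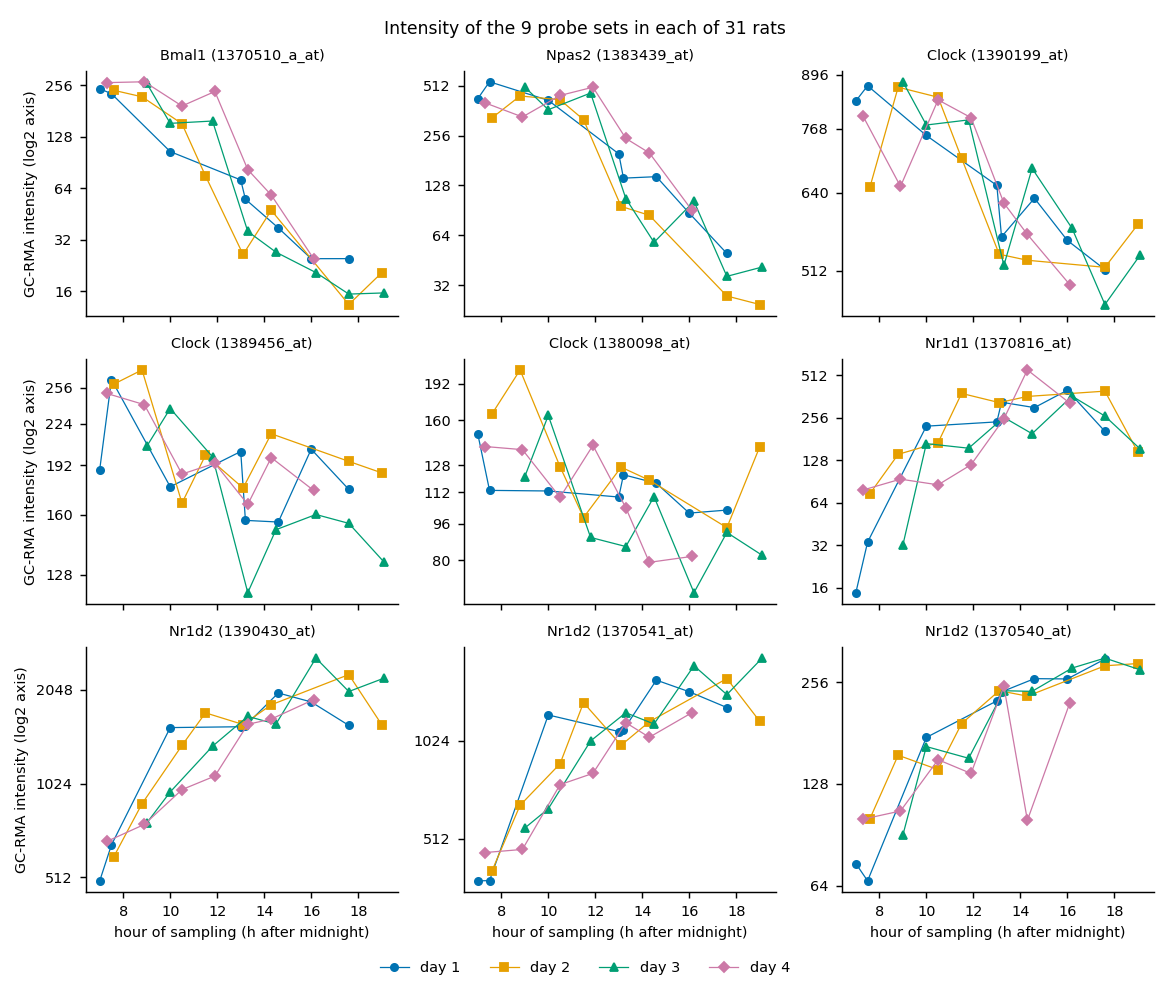
Intensity of the 9 probe sets in each of 31 rats (log2 axis) against the hour of sampling, with 1 point per rat and lines joining rats of the same cycle day. Npas2 stays between 319 and 541 in every rat before 13 h and lies under 247 afterwards, while Nr1d1 climbs from 14.7 at 7 h and is back at 146 and 154 in the rats of about 19 h.

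Nr1d1 (1370816_at), which encodes REV-ERB alpha, rose through the morning and had its day maximum in the afternoon, at 16, 17.6, 16.2 and 14.3 h on days 1 to 4. It lay between 14.7 and 141 (median 74.4) in the 7 rats before 10 h, between 85.8 and 382 (median 168) in the next 7, between 198 and 561 (median 303) in the 9 rats from 13 to before 16 h, and between 146 and 403 (median 295) in the last 8. The first and last groups do not overlap, and the last mean was 4.22-fold the first. On the days with late samples the last rat lay lowest of the afternoon: 205 at 17.6 h on day 1, 146 at 19 h on day 2 and 154 at 19.1 h on day 3, against day maxima of 403, 396 and 365. Day 4 has no sample after 16.1 h. The slope was 2.30 over 10 h (SE 0.46, adjusted p = 0.00374 from limma) and was no longer called without day 1 (1.76, adjusted p = 0.0808).

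Nr1d2, which encodes REV-ERB beta, rose over the sampled day. For 1390430_at the intensity lay between 499 and 882 (median 667) in the 7 rats before 10 h, between 963 and 1729 (median 1351) in the next 7, between 1560 and 2003 (median 1591) in 9 rats and between 1576 and 2594 (median 1966) in the last 8. No rat from 10 h on was as low as any rat before it, and the last mean was 2.92-fold the first. On days 1 to 3 the last rat stood at 1576, 1584 and 2236, under day maxima of 2003, 2295 and 2594. By contrast, the last rat held the day maximum of 1370540_at on days 1 and 2 and of 1370541_at on day 3. The slope of 1390430_at was 1.51 over 10 h (SE 0.17, adjusted p = 5.44e-07 from limma). The other probe sets had slopes of 1.60 (1370541_at, SE 0.17, adjusted p = 4.41e-07 from limma) and 1.5 (1370540_at, SE 0.18, adjusted p = 1.47e-06 from limma). The probe sets disagreed in the rat of 86.3 h, where 1370540_at stood at 99.9, its lowest value of day 4, while 1390430_at stood at 1652, between the rats before and after it, and 1370541_at at 1050, below both (1164 and 1247).

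A bend of the daily course, tested as the square of the clock hour, was called for 3 of 22943 probe sets, or 0.0131%, and 2 of them were REV-ERB probe sets. Nr1d1 had a curvature of -0.054 log2 units per squared hour (SE 0.0086, adjusted p = 0.00938 from limma), with the top of the fitted course at 15 h. Nr1d2 1390430_at had one of -0.019 (SE 0.0033, adjusted p = 0.0261 from limma), with the top at 16.9 h. The other was Cry1, a repressor of the BMAL1 pair that also carries ROR response elements, which bent the other way (0.046, SE 0.0069, adjusted p = 0.00568 from limma). The other 7 member probe sets were not called, and Nr1d2 1370541_at had nearly the same curvature as its partner (-0.018, SE 0.0037, adjusted p = 0.240 from limma). At an unadjusted p under 0.05 there were 1010 probe sets. The call of Nr1d1 was lost without the rat of 7 h (adjusted p = 0.0873) or 43 h (0.155), without day 1 (0.405) and without day 2 (0.9999). That of Nr1d2 was lost without the rat of 7, 7.5, 14.6, 31.6, 34.5, 35.5, 43, 61.3 or 85.3 h (adjusted p from 0.0509 to 0.303), and without day 1 (0.394), day 2 (0.9999) or day 4 (0.0508). With array weights both stood at 0.0644. Among the 20 rats of 9 to 17 h alone they stood at 0.839 and 0.961.

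The fall of Bmal1 was seen on each of the 4 days. On days 1 to 4 in turn its slope per hour was -0.33, -0.37, -0.44 and -0.39, each called by limma, where calls were 0.0915%, 0.54%, 0.131% and 0.0218% of all probe sets on days 1 to 4. Within a day the highest rat stood 9.85-fold, 17.9-fold, 17.1-fold and 10.8-fold over the lowest. The call on day 4, a day sampled until 16.1 h only (adjusted p = 0.0154 from limma), was lost without the rat of 80.9, 86.3 or 88.1 h (0.0879, 0.0777 and 0.620) and with array weights (0.140). The other calls on day 4 were Tef and Hlf, clock-controlled factors, with 2 probe sets each.

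Npas2 fell by 0.30, 0.41 and 0.40 log2 units per hour on days 1 to 3, all called, and its slope on day 4 was -0.21 (SE 0.070, adjusted p = 0.776 from limma). The call on day 1 (adjusted p = 0.00827 from limma) was lost without the rat of 7.5 h (0.0549) or 17.6 h (0.173). All 3 Nr1d2 probe sets were called on day 1, with slopes from 0.16 to 0.21 and adjusted p = 0.0355, 0.0152 and 0.00274 from limma. They were not called on days 2 to 4, where the adjusted p was 0.0605 or more, but the calls on days 2 and 3 turned with single rats and settings. Without the rat of 10 h, 1390430_at and 1370541_at passed on both of these days (adjusted p from 0.0188 to 0.0457 from limma), and without that of 43 h 1390430_at passed on day 2 (0.0271) and both passed on day 3 (0.0409 and 0.0443). Day 2 was also called for 1390430_at without the rat of 17.6 h, for 1370541_at without that of 35.5 h, and for 1370540_at without that of 7.5, 85.3 or 86.3 h (0.0229 to 0.0491). Day 3 was also called for 1390430_at without the rat of 17.6 or 31.6 h, for 1370541_at without that of 7.5, 17.6, 31.6 or 35.5 h and with quantile normalization (0.0426), and for 1370540_at without that of 86.3 h (0.0288). The number of calls therefore sets no day apart for Nr1d2. Without the rat of 7 or 7.5 h none of the 3 was called on day 1 (adjusted p from 0.0549 to 0.722), 1390430_at and 1370541_at not without that of 16 h (0.118 and 0.0603), and 1390430_at not without that of 13.2 or 14.6 h (0.0557 and 0.0770). Nr1d1 had slopes of 0.37, 0.11, 0.18 and 0.31, none called (adjusted p from 0.115 to 0.999 from limma). It was called on day 1 without the rat of 10, 17.6 or 57 h (0.0339, 0.0220 and 0.0460). No Clock probe set was called on any day in this fit. With array weights 1390199_at passed on days 1 and 3 (adjusted p = 0.00304 and 0.0153 from limma). In that setting 1380098_at passed on day 1 (0.0469).

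In all, 5, 2, 2 and 1 of the 9 probe sets were called on days 1 to 4 in turn, and every slope kept its direction on every day. A slope that differed between days was called for 0 of the 9 (adjusted p = 0.9999 from limma for each). The lowest unadjusted limma value was 0.108, for Npas2. The test called 0.00436% of all probe sets, where 839 had an unadjusted p under 0.05. With so few called in all, 0 of 9 does not set the members apart.

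**Figure D2:**
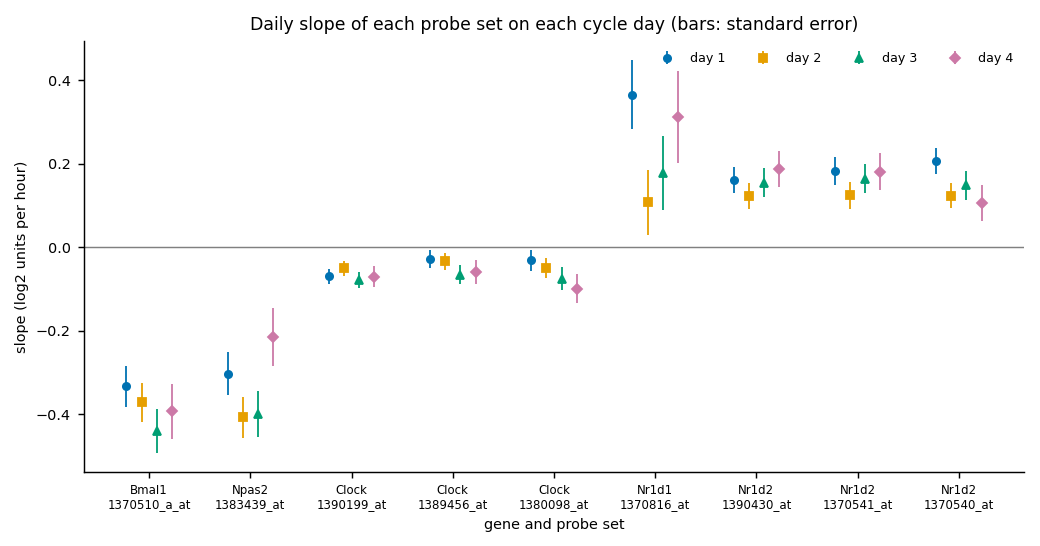
Slope of log2 intensity per hour for each probe set on each of the 4 cycle days, with points for the limma estimate and bars for its standard error. Every activator slope lies below 0 and every REV-ERB slope above it, from -0.44 for Bmal1 on day 3 to 0.37 for Nr1d1 on day 1.

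Levels at a matched hour were compared across the estrous cycle with the clock hour and its square in the fit. A level difference was called for 0 of the 9 probe sets (adjusted p from 0.519 to 0.947 from limma), against 0.379% of all. At an unadjusted p under 0.05 there were 2381 probe sets in all. Beside so low a share, 0 of 9 does not set the members apart and does not show equal levels. The fitted log2 level at the centre of the sampled hours spanned 0.60 for Bmal1, from 6.01 on day 2 to 6.61 on day 4. It spanned 0.60 for Npas2, with the lowest value on day 2 and the highest on day 4, and 0.72 for Nr1d1, with the lowest on day 3 and the highest on day 2. It spanned 0.08 for Clock 1390199_at and 0.19 for Nr1d2 1390430_at. The hour at which the straight line of a day passed the mean level of the 31 rats was 12.3 ± 0.53 h (SE), 12.3 ± 0.48, 12.8 ± 0.43 and 13.8 ± 0.59 for Bmal1 on days 1 to 4 in turn. For Npas2 it was 12.8 ± 0.62, 11.9 ± 0.47, 12.9 ± 0.49 and 15.04 ± 1.41, and for Nr1d2 1390430_at it lay between 12.4 and 12.9 h on all 4 days. The late value of day 4 shows in single rats near noon: Bmal1 stood at 235 at 11.9 h on day 4, at 158 at 11.8 h on day 3 and at 75.5 at 11.5 h on day 2, while Nr1d1 stood at 119, 156 and 382 in the same rats. These are single rats, and the difference between days was not called.

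Phases were compared with a 24-h cosine fitted to each probe set over all days. The cosine was called for 8 of 9 probe sets, against 1.34% of all, and Clock 1389456_at missed (adjusted p = 0.0507 from limma). It passed with all 32 arrays (0.0298), with quantile normalization (0.0278), with array weights (0.0386), with 16 added to the intensity (0.0424), with a floor of 10 on every array (0.0472) and without the rat of 7, 10, 13, 16, 34.5, 38.3, 61.3, 67.1 or 86.3 h (0.0228 to 0.0488). Clock 1380098_at (0.0228) was lost without the rat of 32.8, 41.6 or 88.1 h (0.0521 to 0.0567) and without day 2, 3 or 4 (0.154, 0.0918 and 0.205). The fitted maximum lay at 6.79 ± 0.43 h (SE) for Bmal1, just before the first sampled hour, and at 8.5 ± 0.42 h for Npas2. It lay at 6.76 ± 1.01 h for Clock 1390199_at and at 5.04 ± 1.36 h for 1380098_at, also before sampling began. Nr1d1 had its maximum at 15 ± 0.37 h, and the Nr1d2 probe sets at 16.2 ± 0.40, 16.3 ± 0.47 and 16.8 ± 0.67 h, all within the sampled hours. Since no night hour was sampled, the cosine is an assumption for the rest of the day, and a maximum outside the sampled hours is an extrapolation.

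Leaving Clock aside, the order of maxima over all 31 rats was Bmal1, Npas2, Nr1d1 and Nr1d2. Npas2 followed Bmal1 by 1.70 h (95% interval 0.82 to 2.58). Nr1d1 followed Bmal1 by 8.21 h (7.18 to 9.24) and Nr1d2 1390430_at followed it by 9.38 h (8.35 to 10.4). Nr1d2 followed Nr1d1 by 1.17 h (0.42 to 1.91) for 1390430_at, 1.33 h (0.36 to 2.30) for 1370541_at and 1.83 h (0.37 to 3.29) for 1370540_at. For 9 pairs the interval had 0 inside: Bmal1 with Clock 1390199_at (-0.04 h, -1.81 to 1.73) and with Clock 1380098_at (-1.76 h, -4.52 to 1.01), Npas2 with Clock 1390199_at (-1.74 h, -3.49 to 0.0030), the Clock probe sets among themselves and the Nr1d2 probe sets among themselves (0.16 to 0.66 h apart). The fitted maximum of Clock 1389456_at, whose cosine was not called, lay at 4.07 ± 1.19 h (SE). It differed from that of Bmal1 by -2.73 h (-5.08 to -0.38) and from that of Npas2 by -4.43 h (-6.94 to -1.92). The maximum of Clock 1380098_at differed from that of Npas2 by -3.46 h (-6.68 to -0.24). These intervals, for 36 pairs of probe sets, were not adjusted for their number and allow for the shared spread of rats. Among the 20 rats of 9 to 17 h alone Bmal1 and Npas2 changed places: the maximum of Npas2 lay at 6.27 h and that of Bmal1 at 7.26 h, both still called (adjusted p = 0.00132 and 0.000374 from limma). In that setting 5 of the 8 cosines called over all rats were lost: Nr1d1 (maximum at 15.7 h, adjusted p = 0.114), Nr1d2 1370541_at (17.4 h, 0.143) and 1370540_at (15.8 h, 0.297), and Clock 1390199_at (5.23 h, 0.0742) and 1380098_at (8.88 h, 0.596).

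**Figure D3:**
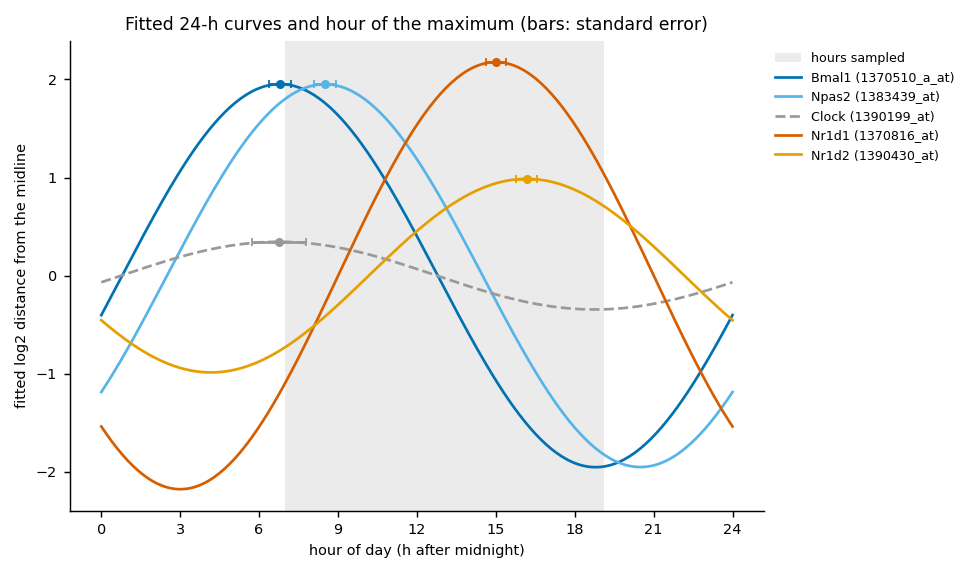
Fitted 24-h cosine of 1 probe set per gene, as log2 distance from its midline, against the hour of day; points mark the maximum, bars its standard error, and the shaded span the hours sampled. The maxima of Bmal1 (6.79 h) and Clock (6.76 h) lie just before the shaded span, that of Npas2 (8.5 h) early in it, and those of Nr1d1 (15 h) and Nr1d2 (16.2 h) late in it.

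The levels of Nr1d1 and Bmal1 were set side by side in the same rats. In the 7 rats before 10 h, which come from all 4 days, Bmal1 lay between 219 and 268 and Nr1d1 between 14.7 and 141. Nr1d1 was lowest there in the rats of 7 h (14.7), 57 h (32.02, a clock hour of 9 h) and 7.5 h (33.6). From 13 h on, when Bmal1 was at 82.1 or less, Nr1d1 lay between 146 and 561. Across the 31 rats the correlation of log2 values with Bmal1 was r = -0.69 (Spearman -0.70) for Nr1d1 and r = -0.87 (Spearman -0.89) for Nr1d2 1390430_at, a description in which the hour of sampling is shared by all points.

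**Figure D4:**
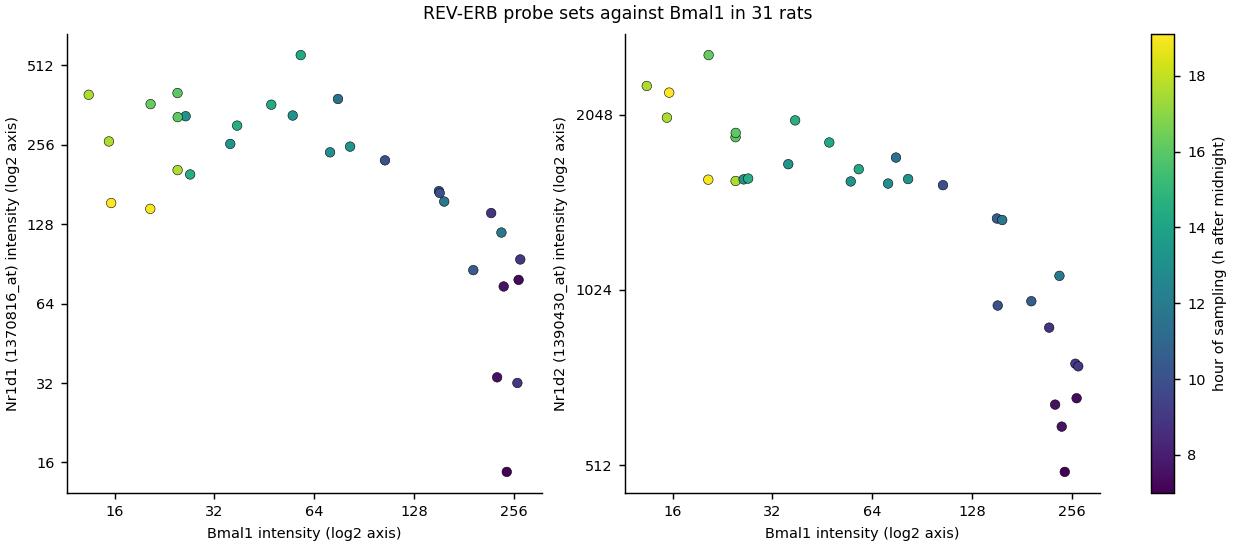
Intensity of Nr1d1 (left) and Nr1d2 1390430_at (right) against that of Bmal1 in 31 rats, both on log2 axes, with each point 1 rat and the color its hour of sampling. Before 10 h Nr1d1 spans 14.7 to 141 while Bmal1 stays between 219 and 268, and the latest rats, at 19 h and after, lie low for both Bmal1 and Nr1d1 (146 and 154).

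To ask whether rats above the daily course in Bmal1 also stood apart in the other members, the log2 level of Bmal1 was added to a fit with the day, the hour and its square. No member passed (0 of 8), and 836 of 22942 probe sets had an unadjusted p under 0.05. Since 0.0131% of all were called, 0 of 8 does not set the members apart. Npas2 had the largest coefficient of the members, 0.68 log2 units per log2 unit of Bmal1 (SE 0.14, unadjusted p = 5.91e-05, adjusted p = 0.271 from limma), and with array weights it passed (0.68, adjusted p = 0.00520). Clock 1390199_at had a coefficient of 0.21 (SE 0.060, unadjusted p = 0.00187, adjusted p = 0.994 from limma). Nr1d1 had one of -0.49 (SE 0.20, unadjusted p = 0.0224, adjusted p = 0.994 from limma). That of Nr1d2 1390430_at was -0.16 (SE 0.080, unadjusted p = 0.0491, adjusted p = 0.994 from limma). The other Clock and Nr1d2 probe sets had an unadjusted p from 0.0858 to 0.363 from limma. The 3 probe sets called were Dbp (-0.84, adjusted p = 0.00103), an output factor of the clock that BMAL1 turns on, Tef 1385374_at (-0.47, adjusted p = 0.0393), a relative of Dbp, and Cxcl1 (0.87, adjusted p = 0.0176), a chemokine that attracts neutrophils. Of the probe sets for Nr1d2, 1390430_at and 1370541_at deviated together (r = 0.87, Spearman 0.79 over 31 rats), but 1390430_at and 1370540_at did so weakly (r = 0.22, Spearman 0.22).

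**Figure D5:**
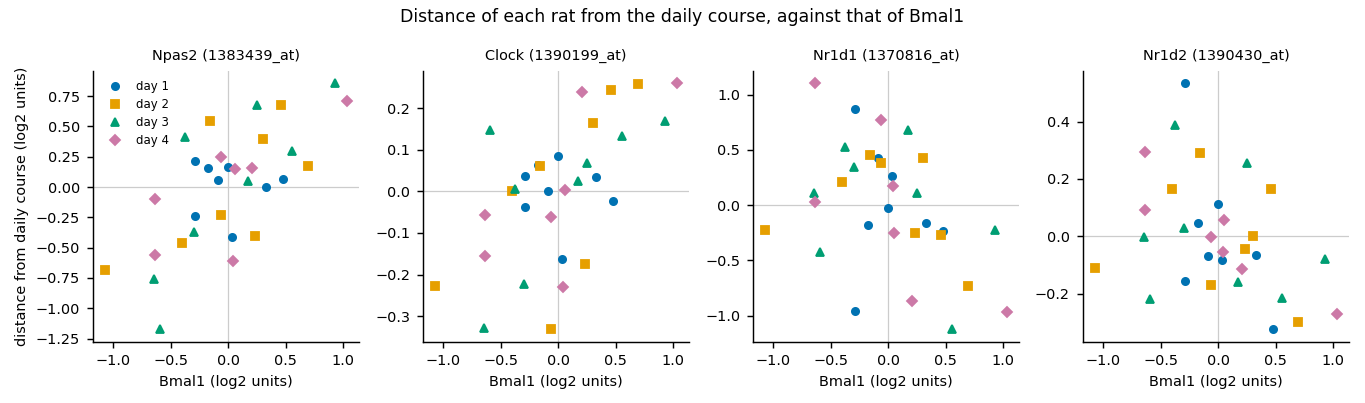
Distance of each of 31 rats from the fitted daily course (day, hour and squared hour), in log2 units, for 1 probe set each of Npas2, Clock, Nr1d1 and Nr1d2 against the same distance for Bmal1. The points of Npas2 run upward (coefficient 0.68, adjusted p = 0.271) and those of Nr1d1 downward (-0.49, adjusted p = 0.994), and neither passed the test.

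Over the 31 rats the log2 level of Npas2 followed that of Bmal1 with r = 0.94, at rank 3 of all 22943 probe sets when Bmal1 itself is counted as rank 1, and Clock 1390199_at stood at rank 9 with r = 0.86. The other Clock probe sets had r = 0.64 and 0.61. Outside the members the genes most like Bmal1 were Dtx4, a ubiquitin ligase of the Notch pathway (r = 0.95, slope -1.22 over 10 h), Adam19, a membrane protease (r = 0.87), Adamts4, a protease of the matrix (r = 0.87), Bcl3, a partner of NF-kappaB (r = 0.87) and Rnf144a, a ubiquitin ligase (r = 0.86). Those most opposed were Tef 1385374_at (r = -0.97), Dbp (-0.94), Per3 (-0.94), Hlf (-0.94) and Per2 (-0.92), all fixed by the rule of the 5 highest and 5 lowest values.

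Of the rest of the loop, no measured regulator of REV-ERB activity passed the test for a slope. Rora, an activator that competes with REV-ERBs, had a median intensity of 381 and a slope of 0.06 over 10 h (SE 0.11, adjusted p = 0.856 from limma). Rorb (median 9.64) and the Bmal1 relative Arntl2 (9.46) were under the floor and were not tested. Of 4 measured corepressors and partners, Ncor1, Hdac3, Tbl1x and Tbl1xr1, 0 passed, and of 7 measured enzymes of heme synthesis 0 passed. Alas1, the first and rate-limiting enzyme of that pathway, had a slope of 0.43 (SE 0.13, adjusted p = 0.107 from limma). Of 6 measured kinases and ubiquitin ligases of clock proteins, 0 passed. The median slopes of these lists were 0.01, 0.14 and 0.12, against 0.02 over all probe sets tested. Since 1.08% of all probe sets rose and 0.68% fell, a count of 0 in lists this short sets none of them apart. Of 5 measured PER and CRY repressors 4 rose and Cry1 did not pass for its slope. Of the PAR bZIP factors and their rival Nfil3, which also carries ROR response elements, 3 rose and Nfil3 fell (-1.84, adjusted p = 1.46e-05 from limma), with a fitted maximum at 4.38 ± 0.61 h.

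With the study's own test, Method 1, which asks what share of a probe set's variance a spline over the 31 hours takes up, all 9 probe sets were called at a false discovery rate of 0.25, against 8.04% of all. At a rate of 0.05 Clock 1389456_at (adjusted p = 0.124), Clock 1380098_at (0.0648) and Nr1d1 (0.0832) were not called. The share was 0.895 for Bmal1, 0.874 for Npas2, 0.763 to 0.773 for the Nr1d2 probe sets, 0.524 to 0.668 for those of Clock and 0.558 for Nr1d1, and the median over all probe sets was 0.247.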

How the data were processed

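RNA of 32 rat mammary glands was measured on 1 array each. The deposited intensity values are linear and were made by the authors with GC-RMA in GeneSpring (listed as GCRMA in the processing notes of the submitters, with no version), which corrects background by probe sequence and normalizes arrays together. They run from 2.22 to 37317. No batch of arrays was known, and the number of arrays limits the precision.

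Of 31099 probe sets, 57 controls were left out and 22943 with a median of at least 10 over the 31 arrays were tested. The study's filter, 10 on every array, leaves 21068 and removes genes that fall low at some hours. Symbols come from the platform annotation, and 20764 probe sets matched the GRCr8 gene table by Entrez identifier. For a gene of the pathway lists with several probe sets, the one of highest median was used. limma was fitted to log2 intensities with the clock hour centred at 12.5 h. p-values were adjusted by Benjamini-Hochberg over all probe sets tested, and standard errors of peak hours came from the delta method. Method 1 used a spline of order 2 with 8 basis functions and the study's permutation vector. Genes named are the members, the pathway lists and, by correlation, the 5 genes most like and the 5 most unlike Bmal1. For these 5 and 5, members and probe sets without a single symbol were passed over, and each gene counted once. The other genes called beside members in a small count were named after their values were seen. Members and lists were chosen with earlier results of these data known.

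On simulated data for 22943 probe sets, 89% of slopes of 1 log2 unit over 10 h were recovered and 100% of slopes of 2, with 7.35% of calls false. For curvature, 75% of 0.02 and 96% of 0.04 log2 units per squared hour were recovered, with 8.06% false. Shifts of day 3 by 1 log2 unit were recovered in 93%, with 8.61% false, and smaller shifts were not simulated. A covariate coefficient of 0.5 was recovered in 74%, with 4.44% false. Except for the covariate, these false shares lay above the 0.05 of the adjusted p threshold. The recovered shares are over all simulated probe sets and were not given for those of wide spread. In log2 units, the standard deviation of rats around the daily course was 0.53 for Bmal1 and Npas2 and 0.61 for Nr1d1. It was 0.18 to 0.31 for the other members, and its median over all probe sets tested was 0.23. Alternatives covered the filter, the arrays and days used, normalization, pseudocount, array weights, spline order and false discovery rate. Within days, 36 groups of distances from the daily course were searched for a rat that stands apart by Dixon's ratio, and 0 were found. R 4.3.3, limma 3.58.1, Python 3.11.15, numpy 2.4.6, pandas 2.3.3 and matplotlib 3.10.9 were used.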

Additional observations from a re-analysis of the deposited data

How the results depend on the processing

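No called value of a member changed direction under any alternative run. The slopes over all days of Bmal1, Npas2, Clock 1390199_at and Nr1d2 1390430_at and 1370541_at stayed past the threshold under every alternative run. So did the day slopes of Bmal1 on days 1 to 3 wherever they were fitted. Day slopes were not fitted at 9 to 17 h or with a day left out. At 9 to 17 h, a setting with 20 rats, the slopes of Clock 1389456_at (adjusted p = 0.668), Clock 1380098_at (0.409) and Nr1d2 1370540_at (0.139) were lost. With array weights more day slopes passed, among them those of all 3 Nr1d2 probe sets on days 2 and 3 and that of Nr1d1 on day 1 (0.52, adjusted p = 1.83e-05). With all 32 arrays the 3 Nr1d2 probe sets passed on day 2 (adjusted p from 0.0394 to 0.0454). The cause of these changes was not tested.

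Counts over all probe sets moved more. Without the filter the level difference between days was called for 50 probe sets. With all 32 arrays the slope difference between days was called for 0. With array weights the counts were 3207, 362, 255 and 1 for slopes on days 1 to 4, 61 for the slope difference, 400 for the level difference, 497 for the cosine and 16 for the covariation with Bmal1. With rats of 9 to 17 h they were 23 higher and 14 lower slopes, 0 bends and 26 cosines. Without day 1 they were 141 higher, 83 lower, 0 slope differences, 0 bends, 14 level differences, 166 cosines and 1 covariation. Without day 2 they were 75 higher, 54 lower, 0 slope differences, 0 bends and 110 cosines. Without day 3 they were 0 slope differences, 7 bends, 4 level differences and 0 covariations. Without day 4 they were 154 higher, 2 slope differences, 187 cosines and 1 covariation. Method 1 called 777 with a spline of order 3 and 387 at a false discovery rate of 0.05.

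Leaving out each rat in turn, the counts ran from 170 to 297 for higher and 116 to 181 for lower slopes, from 231 to 375 for the cosine, from 7 to 24 for slopes on day 1 (7 without 7 h, 13 without 7.5 h, 10 without 16 h) and from 29 to 208 on day 2 (69, 77, 72, 29, 47 and 208 without the rats of 31.6, 32.8, 34.5, 41.6, 43 and 62.5 h in turn). They ran from 15 to 41 on day 3 (15 without 58 or 67.1 h, 18 without 65.6 h) and from 0 to 7 on day 4 (3 without 79.3 or 80.9 h, 0 without 86.3 or 88.1 h). They ran from 0 to 2 for the slope difference (0 without 7.5, 16, 31.6, 41.6 or 43 h, 2 without 79.3 or 80.9 h), from 0 to 4 for bends (1 without 7 h, 0 without 43 h), from 27 to 165 for the level difference (165 without 13 h, and 57 or fewer without 10, 13.2, 14.6, 16, 35.5, 57, 58, 59.8, 61.3, 64.2, 67.1 or 83.9 h) and from 1 to 4 for the covariation (1 without 37.1, 59.8 or 83.9 h).

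No paired analysis was possible because each rat is a time point of its own and replicate numbers only name rats. Each hour holds 1 rat, only the daytime was sampled and day 4 ends at 16.1 h, so phases rest on an assumed cosine and the end of the afternoon on 3 days.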

Other observations

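The array of 40 h, on day 2 at a clock hour of 16 h, was compared with the rats sampled before and after it. Bmal1 stood at 43.8, against 47.5 at 38.3 h and 13.4 at 41.6 h, which is 1.41 residual standard deviations above the fitted course of day 2. Npas2 stood at 67.9, against a fitted 66.5. Nr1d1 stood at 275, below both neighbours (364 and 396; -1.02 residual standard deviations), and Nr1d2 1390430_at at 2232, 0.58 above. The farthest was Clock 1380098_at, at 74.3 against a fitted 113 (a difference of -2.34 residual standard deviations, or -0.61 on the log2 scale) and below both neighbours (119 and 94.1). Clock 1389456_at stood at 139.8, also below both (216 and 195; -1.89 residual standard deviations), and Clock 1390199_at at 626, above both (528 and 517; 0.99).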
